A study of Homo sapiens with 22 samples.

Results

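RNA sequencing of IMR90 cells, a line of human fetal lung fibroblasts, was used to compare 60 min of epidermal growth factor (EGF) with PBS in cells given siRNA against MSK2 (gene RPS6KA4). The comparison holds 7 of the 22 libraries of the series: 3 from cells given 750 pM EGF for 60 min and 4 from cells given PBS, which the labels also date at 60 min. Libraries were chosen by their labels. In all 22 libraries, cells had received 10 nM siRNA every 24 h for 72 h and no serum for the last 24 h, so that every control shares the transfection and the starvation. Cells with a non-targeting control siRNA given PBS (4 libraries) or EGF for 60 min (3 libraries) served for reference, as did cells with MSK2 siRNA given EGF for 30 min (4 libraries). The model is 1 cell line with a partial loss of 1 kinase, and nothing in the labels says whether libraries of a group came from separate cultures. P values of the fit therefore set group differences against the spread between libraries, estimated from all 22, which may not cover a spread between cultures.

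EGF binds its receptor tyrosine kinase and switches on RAS, RAF, MEK and ERK. ERK activates nuclear factors such as the ternary complex factors, which act with SRF at CArG boxes, and the kinases MSK1 and MSK2, which phosphorylate histone H3 and the factors CREB and ATF1. Immediate-early genes, whose transcription needs no new protein, follow within minutes, and many of them encode transcription factors or inhibitors that switch the pathway off again. The study asked which genes that respond to EGF need MSK2, and compared cells with MSK2 siRNA after EGF with cells with control siRNA. Here the response was read against PBS with the same siRNA.

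The upstream sequences of 6 genes are shown, since the best known routes from ERK to these genes run through short promoter motifs. They are 6 of the genes with the largest rises that held a full cyclic AMP response element (CRE, TGACGTCA), a CArG box or an EGR site (GCGGGGGCG) on either strand within the 250 bases before a transcription start. Sequences and starts are those of RefSeq on GRCh38.p14, written 5′ to 3′ on the strand of the gene, with the motifs in capitals.
EGR2, chr10:62816367-62816616, minus strand: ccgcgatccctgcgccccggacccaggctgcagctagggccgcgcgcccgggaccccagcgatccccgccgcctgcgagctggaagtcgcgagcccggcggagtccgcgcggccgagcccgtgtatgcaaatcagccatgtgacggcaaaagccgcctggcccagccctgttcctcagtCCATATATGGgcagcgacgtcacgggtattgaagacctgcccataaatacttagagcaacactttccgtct
DUSP2, chr2:96145441-96145690, minus strand: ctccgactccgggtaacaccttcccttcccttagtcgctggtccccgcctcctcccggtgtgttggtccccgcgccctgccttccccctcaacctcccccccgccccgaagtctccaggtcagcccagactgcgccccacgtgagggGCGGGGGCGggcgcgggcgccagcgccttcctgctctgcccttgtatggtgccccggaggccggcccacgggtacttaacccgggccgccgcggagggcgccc
EGR1, chr5:138465229-138465478, plus strand: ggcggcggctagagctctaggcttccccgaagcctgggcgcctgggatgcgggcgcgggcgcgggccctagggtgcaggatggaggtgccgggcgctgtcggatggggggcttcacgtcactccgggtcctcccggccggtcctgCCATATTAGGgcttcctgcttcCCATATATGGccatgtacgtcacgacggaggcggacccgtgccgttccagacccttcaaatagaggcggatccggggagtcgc
KLF2, chr19:16324576-16324825, plus strand: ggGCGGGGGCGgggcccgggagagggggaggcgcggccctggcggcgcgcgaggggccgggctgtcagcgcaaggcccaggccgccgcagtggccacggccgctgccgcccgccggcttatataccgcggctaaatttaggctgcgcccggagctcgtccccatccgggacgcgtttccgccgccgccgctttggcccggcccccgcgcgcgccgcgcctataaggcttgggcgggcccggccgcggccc
DUSP1, chr5:172771196-172771445, minus strand: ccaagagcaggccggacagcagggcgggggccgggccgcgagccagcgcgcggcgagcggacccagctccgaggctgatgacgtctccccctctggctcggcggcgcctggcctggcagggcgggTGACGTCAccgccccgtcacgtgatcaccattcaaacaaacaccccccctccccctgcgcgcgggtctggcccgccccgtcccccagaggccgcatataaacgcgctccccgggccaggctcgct
SPRY2, chr13:80341127-80341376, minus strand: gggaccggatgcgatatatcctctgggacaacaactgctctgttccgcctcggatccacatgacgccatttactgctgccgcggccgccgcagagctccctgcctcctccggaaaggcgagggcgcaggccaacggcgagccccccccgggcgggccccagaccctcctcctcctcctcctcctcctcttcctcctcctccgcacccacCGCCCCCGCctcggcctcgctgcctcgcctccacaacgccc

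EGR1 held a pair of CArG boxes, CCATATTAGG at -105 to -96 and CCATATATGG at -83 to -74 from the start, and EGR2 held CCATATATGG at -71 to -62. In DUSP1 the CRE lay at -125 to -118, and in SPRY2 the EGR site at -41 to -33 was on the other strand. The windows of EGR1, KLF2, DUSP1 and SPRY2 overlapped no GENCODE exon. The EGR2 window lay inside the longest annotated EGR2 gene and covered 7 bases of an EGR2 exon. The DUSP2 window covered 55 exon bases of an unnamed gene.

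Among genes that rose with MSK2 siRNA after 60 min of EGF, 167 had windows in the RefSeq table, 242 in all. A CRE stood in 5.79% of these windows, against 2.67% of the 11872 windows of genes tested and 1.65% of all 35116 windows. In the 77 windows of genes that rose by more than 1 on the log2 scale it stood in 2, or 2.6%. For the CArG box the shares were 3.31%, 1.1% and 1.16%, and for the EGR site 10.3%, 7.79% and 4.72%. The AP-1 site TGACTCA, which binds FOS and JUN dimers and is not contained in the CRE, stood in 5.79%, 2.91% and 4.2%. In the 77 windows of genes that rose by more than 1, the CArG box stood in 3.9%, the EGR site in 15.6% and the AP-1 site in 5.19%. A match is a description of letters, not a bound site, and base composition was not adjusted for.

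Gene counts summed to 12236060 to 20986133 per library after PBS and to 12601179 to 16787564 after EGF. The siRNA target RPS6KA4, at chr11:64359148-64372215, was at 3.77, 2.698, 1.74 and 1.78 CPM (counts scaled to library size with TMM factors) in the PBS libraries and at 2.15, 2.96 and 3.65 CPM in the EGF libraries. Its mean was 87.7% lower than with control siRNA after PBS (2-sided exact permutation test over libraries, P = 0.0286) and 86.3% lower after EGF (P = 0.1), in each case the smallest P that the design allows. Its difference between EGF and PBS did not pass the test (log2 fold change 0.24 ± 0.30 SE, quasi-likelihood adjusted P = 0.909). Fibroblast genes were high in every library, with a summed level of the 18 markers of 68059 to 73030.4 CPM after PBS and 67217 to 72340.3 CPM after EGF. Leukocyte markers summed to at most 1.75 CPM.

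With MSK2 siRNA, 60 min of EGF raised 206 of the 9770 genes tested, 2.11% of them, and lowered 5, or 0.0512% (edgeR quasi-likelihood test, Benjamini-Hochberg adjusted P under 0.05). The rises were led by NR4A1, EGR3 and EGR2, all transcription factor genes, and most of the 12 largest rises were in genes for transcription factors. Log2 fold changes of the 206 genes ran from 0.26 to 4.09 with a median of 0.71. Of these, 70 rose by more than 1 on the log2 scale, 22 by more than 2, and 49 by less than 0.5. In all 206, the lowest EGF library stood above the highest PBS library, and in all 5 lower genes the reverse held. Over all genes tested, 5.41% had EGF libraries wholly above and 3.42% wholly below the PBS libraries, and the median log2 fold change was -0.02.

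**Figure D1:**
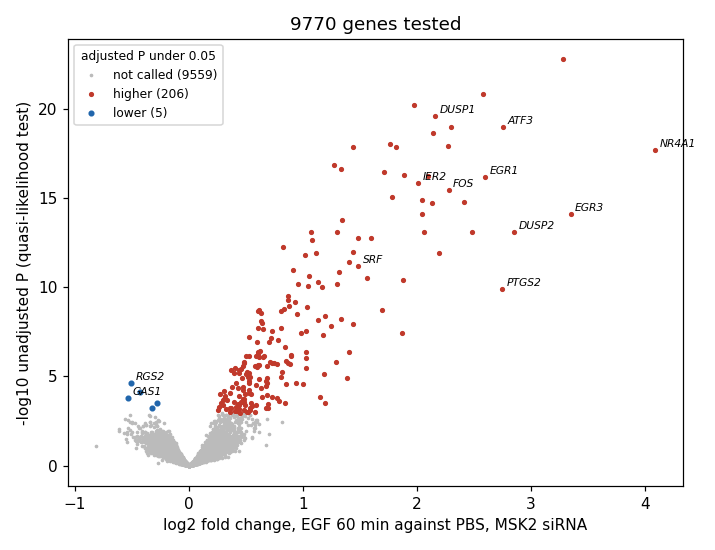
Log2 fold change after 60 min of EGF against PBS with MSK2 siRNA (x axis) and -log10 of the unadjusted P of the quasi-likelihood test (y axis) for 9770 genes, 1 point each. Red points are the 206 genes higher and blue points the 5 genes lower at an adjusted P under 0.05, and the called genes lie almost wholly on the right.

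Transcription factors of the immediate-early class made up the most complete group. Of 28 listed genes 25 were expressed highly enough to be tested. Of these 25, 24 rose and 0 fell, against 2.11% and 0.0512% of all genes. Their median log2 fold change was 1.97, against -0.02 for all genes. NFIL3, a basic leucine zipper repressor, was the remaining member (0.30 ± 0.11 SE, adjusted P = 0.275), although its EGF libraries (93.2 to 98.8 CPM) lay above its PBS libraries (71.6 to 82.6 CPM). The summed level of the list went from 1468 to 1676 CPM after PBS to 4435 to 4764 CPM after EGF.

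NR4A1, an orphan nuclear receptor at chr12:52022832-52059507, had the largest rise. It was at 2.47, 2.698, 3.31 and 2.41 CPM after PBS and at 48.1, 52.2 and 36.9 CPM after EGF, so the groups were far apart (log2 fold change 4.09 ± 0.19 SE, adjusted P = 1.6e-15). Its relative NR4A2 went from a mean of 26.1 to 51.5 CPM (0.98 ± 0.13, adjusted P = 4.55e-06).

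The zinc finger factors EGR1, EGR2 and EGR3 all rose. EGR2 was at 14.3 to 17.6 CPM in the 4 PBS libraries and at 157, 157 and 146 CPM in the EGF libraries (3.28 ± 0.10, adjusted P = 1.64e-19). EGR1 was at 114, 104, 93.5 and 72.2 CPM and then at 562, 596 and 574 CPM (2.59 ± 0.14, adjusted P = 3.74e-14). The EGF libraries of EGR1 differed little from each other, while its PBS libraries spread more. EGR3, at 1.42 to 3.34 CPM after PBS, reached 20.3, 21.9 and 26.3 CPM (3.35 ± 0.22, adjusted P = 2.91e-12).

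The AP-1 subunits rose to different extents. FOS was at 11.4, 10.9, 6.88 and 11.2 CPM after PBS and at 39.2, 56.0 and 52.7 CPM after EGF (2.28 ± 0.13, adjusted P = 1.69e-13). JUNB went from 40.0 to 51.5 CPM to 198, 242 and 197 CPM (2.27 ± 0.11, adjusted P = 1.28e-15). FOSL1, which encodes a slower FOS relative, rose by 1.71, JUN by 1.03, JUND by 0.53 and FOSL2 by 0.50. ATF3, a stress-induced partner of JUN, was nearly constant after PBS (6.98 to 7.47 CPM) and at 43.9, 53.3 and 50.01 CPM after EGF (2.76 ± 0.12, adjusted P = 1.7e-16). FOS was the gene among these that stood lower at 60 than at 30 min, with a log2 fold change of 4.39 at 30 min against the same PBS libraries. For JUNB the value at 30 min was 2.00, for ATF3 1.14 and for FOSL1 the mean was 103 CPM at 30 min and 238 CPM at 60 min. Whether 60 and 30 min differed was not tested.

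KLF and related factors also rose. KLF2, a repressor of inflammatory genes, was at 16.1, 12.8, 12.9 and 7.897 CPM and then at 66.6, 66.8 and 63.1 CPM (2.41 ± 0.15, adjusted P = 6.9e-13). KLF10, which is induced by many growth factors, went from 165 to 203 CPM to 740, 701 and 670 CPM (1.97 ± 0.07, adjusted P = 1.91e-17). CSRNP1, a nuclear protein induced by growth factors, went from 21.3 to 26.7 CPM to 151, 144 and 152 CPM (2.58 ± 0.09, adjusted P = 7.7e-18). BHLHE40, a repressor of the circadian system, went from 47.8 to 54.9 CPM to 264, 245 and 247 CPM (2.30 ± 0.10, adjusted P = 1.7e-16). In all 4 genes the lowest EGF library stood well above the highest PBS library. MYC rose by 1.48 and SRF, whose product binds the CArG box, also by 1.48.

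**Figure D2:**
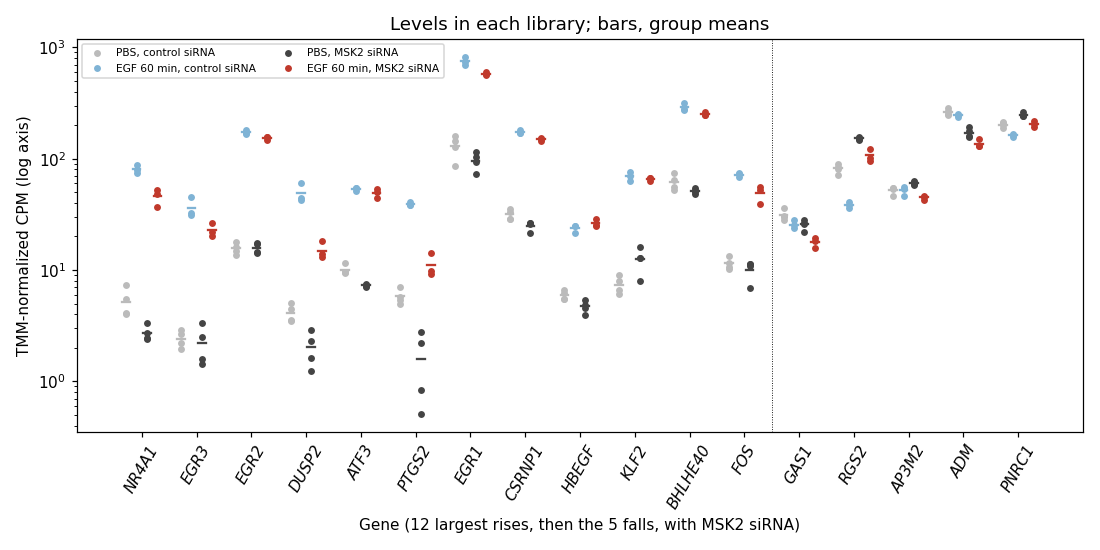
Level of each gene in each library, in CPM on a log axis, for the 12 largest rises and the 5 falls with MSK2 siRNA, with short bars at the group means. Black (PBS) and red (EGF) points are libraries with MSK2 siRNA, gray and blue points the same treatments with control siRNA. The 17 genes were picked from called genes whose black and red points do not overlap, so this separation was set by the rule.

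Inhibitors of growth factor signaling were the next group. Of 28 tested members 13 rose and 1 fell, against 2.11% and 0.0512% of all genes. Their median log2 fold change was 0.54. The dual-specificity phosphatases dephosphorylate MAP kinases. DUSP2 was at 1.23, 1.63, 2.32 and 2.89 CPM after PBS and at 13.0, 18.1 and 13.8 CPM after EGF (2.85 ± 0.21, adjusted P = 2.63e-11). DUSP1 went from 77.0, 61.7, 68.3 and 67.8 CPM to 285, 308 and 327 CPM (2.16 ± 0.09, adjusted P = 6.22e-17). DUSP5, which acts on ERK in the nucleus, rose by 1.56 and DUSP6, which acts on it in the cytoplasm, by 1.34. DUSP4, DUSP7, DUSP10, DUSP14 and DUSP16 did not pass the test, with log2 fold changes from -0.21 to 0.60.

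Sprouty proteins restrain signaling upstream of RAF. SPRY2 went from 48.2 to 60.8 CPM to 201, 188 and 189 CPM (1.82 ± 0.08, adjusted P = 1.29e-15), and SPRY4 rose by 2.06. SPRY1, with 0.12, did not pass. ERRFI1, which encodes MIG6, an inhibitor of the EGF receptor kinase, was at 66.2 to 88.5 CPM after PBS and at 275, 259 and 240 CPM after EGF (1.78 ± 0.11, adjusted P = 4e-13). The cytokine signaling inhibitors SOCS3 and CISH rose by 1.17 and 1.33, the corepressor NAB2, which binds EGR factors, by 1.05, and IER3, an early gene that prolongs ERK activity, by 2.04.

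Genes that shorten the life of mRNA or slow growth responded in part. Of 12 members 6 rose and 1 fell (median 0.39), against 2.11% and 0.0512% of all genes. ZFP36, which binds AU-rich elements and recruits the decay machinery, was at 38.0, 32.5, 32.8 and 31.2 CPM after PBS and at 123, 140 and 110 CPM after EGF (1.89 ± 0.10, adjusted P = 3.05e-14). Its value at 30 min was 2.56. The endonuclease gene ZC3H12A rose by 1.41 ± 0.12, ZFP36L1 by 0.95 ± 0.09 and the antiproliferative gene BTG2 by 0.80 ± 0.09.

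Of 25 tested genes for secreted growth factors and cytokines 11 rose and 0 fell (median 0.33), against 2.11% and 0.0512% of all genes. HBEGF, itself a ligand of the EGF receptor, was at 5.37, 4.90, 3.98 and 4.58 CPM after PBS and at 24.9, 25.4 and 28.7 CPM after EGF (2.48 ± 0.18, adjusted P = 2.64e-11). LIF, a cytokine of the IL6 family, went from 17.5 to 25.8 CPM to 94.0, 100 and 86.7 CPM (2.13 ± 0.13, adjusted P = 7.91e-13), and IL11 of the same family from a mean of 3.09 to 11.5 CPM (1.87 ± 0.18). GDF15, a stress-induced TGF-beta relative, was at 71.6 to 112 CPM and then at 354, 416 and 381 CPM (2.10 ± 0.11, adjusted P = 3.43e-14). The matricellular gene CCN1 was at 266 to 302 CPM after PBS and at 912, 996 and 992 CPM after EGF (1.76 ± 0.08, adjusted P = 1.1e-15). Its relative CCN2 rose by 1.08, VEGFA by 0.94, STC1 by 1.07 and CCL2 by 0.73, whereas TGFB1, CSF1, FGF7 and WNT5A had values of 0.05 to 0.12 and did not pass.

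Of 17 tested CREB target genes 11 rose and 1 fell, with a median of 0.98, where 2.11% of all genes rose and 0.0512% fell. Several of them (NR4A1, ATF3, EGR1, FOS, JUNB, DUSP1) are also on the lists above, so the counts are not separate. The clock gene PER1 rose by 1.39 ± 0.26 and PPP1R15A, a subunit of the phosphatase that restores translation after stress, by 0.91 ± 0.08. CITED2, a protein that binds CBP and p300, rose by 0.52. BDNF, CREM and IRS2, with values of 0.12 to 0.36, did not pass. Among CREB, ATF1 and their coactivators 0 of 10 passed in either direction (3 higher and 0 lower at an unadjusted P under 0.05, where 5.89% of all genes were higher and 2.69% lower), with ATF1 at 0.35, EP300 at 0.40 and CREB1 at 0.07.

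From the receptor to ERK and the ETS factors 2 of 25 genes rose, where 2.11% of all genes did, ETS1 (0.44 ± 0.10, adjusted P = 0.008) and ETS2 (0.39 ± 0.07, adjusted P = 0.000483), and without the first EGF library ETS1 no longer passed (adjusted P = 0.13). EGFR, at -0.02, and MAPK3, which encodes ERK1, at 0.08, did not pass. Of the 5 MSK and RSK genes tested 0 passed (1 higher at an unadjusted P under 0.05). RPS6KA5, which encodes MSK1, was at 5.14 to 7.60 CPM after PBS and at 7.71, 6.94 and 10.9 CPM after EGF (0.46 ± 0.18, adjusted P = 0.357), and these ranges overlap.

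Targets of other pathways were represented by a few strong members each, where 2.11% of all genes tested rose. Of 17 NF-kB targets 5 rose (median 0.19). PTGS2, the inducible cyclooxygenase, was at 0.51, 2.77, 0.83 and 2.21 CPM after PBS, from 7 to 46 reads, and at 9.70, 14.2 and 9.13 CPM after EGF (2.74 ± 0.27, adjusted P = 2.29e-08). Fewer than 2 of these libraries were above 10 CPM, the level asked of 2 libraries, so PTGS2 was tested through libraries of other groups. The chemokine CXCL8 rose by 1.69 and NFKBIZ, a nuclear cofactor of NF-kB, by 1.32, while NFKBIA (-0.16), TNFAIP3 (0.11) and SOD2 (-0.20) did not pass. Of 23 YAP and TEAD targets 5 rose (median 0.03): CCN1, CCN2, AMOTL2, the kinase gene NUAK2 (16.7 to 19.4 CPM, then 54.1, 52.3 and 58.6 CPM; 1.598 ± 0.12, adjusted P = 5.35e-11) and F3, which encodes tissue factor, the trigger of clotting (119 to 137 CPM, then 346, 322 and 348 CPM; 1.44 ± 0.07, adjusted P = 1.29e-15). Of 25 p53 targets 6 rose (median 0.03), led by GDF15, by the BH3-only gene PMAIP1 (1.13 ± 0.11) and by BTG2, whereas BAX, DDB2 and SESN1 had values of -0.11 to -0.09. Of 19 genes of the integrated stress and unfolded protein responses 5 rose (median 0.06): ATF3, PPP1R15A, CHAC1, CEBPB (0.61 ± 0.12) and DDIT3, while the chaperone gene HSPA5 was at 0.04.

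Over all genes tested 2.11% rose, which is the background for both lists here. Of 25 listed SRF and MRTF targets of the actin cytoskeleton 2 rose (median 0.04). ACTG1, which encodes cytoplasmic gamma actin, went from 1686 to 1842 CPM to 2096, 2100 and 2165 CPM (0.27 ± 0.06, adjusted P = 0.00601). FILIP1L rose by 0.32 ± 0.08 (adjusted P = 0.0335) and lost its call when any of 5 libraries was left out (adjusted P 0.0644 to 0.312). ACTA2, TAGLN and VCL had values of -0.11 to 0.02. Of 11 G1 cyclins and CDK inhibitors 2 rose, CDKN2B (0.49 ± 0.11, adjusted P = 0.00611) and CDKN1A (0.30 ± 0.07, adjusted P = 0.0121), and both lost the call without the third EGF library (adjusted P = 0.0502 and 0.105). CDKN1A also lost it without PBS library 2 or 3 or EGF library 2 (adjusted P 0.0551 to 0.0642). CCND1, the D cyclin gene classically induced later in G1, was at 0.00.

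Several lists held no called gene, where 2.11% of all genes were higher and 0.0512% lower. At an unadjusted P under 0.05 the shares over all genes were 5.89% higher and 2.69% lower. No called gene was found among 10 genes of S phase and mitosis (1 higher and 2 lower at an unadjusted P under 0.05), 13 interferon-stimulated genes (0 and 1), 18 fibroblast markers (0 and 1), 3 epithelial markers (1 and 0) and TEK, the endothelial marker tested. Among 15 transcripts of the mitochondrial genome 0 passed (0 and 1), but all 15 log2 fold changes were below 0, with a median of -0.17. In other settings some were called lower, MT-CO1 and MT-RNR2 with no filter on low counts, and MT-ND2 and MT-ND5 with the replicate number as a block. The mitochondrial share of gene counts was 2.04 to 2.85% in the PBS libraries and 1.82 to 1.95% in the EGF libraries, so that this share moved with the treatment, and its part in the results was not tested. The summed epithelial markers also stood apart (53.6 to 68.2 CPM and then 70.1 to 73.0 CPM), through KRT18 (0.37 ± 0.11, adjusted P = 0.0656). KRT8, a gene that overlaps KRT18 on the other strand, went the other way (-0.14), and CDH1 was at 0.01 ± 0.32.

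**Figure D3:**
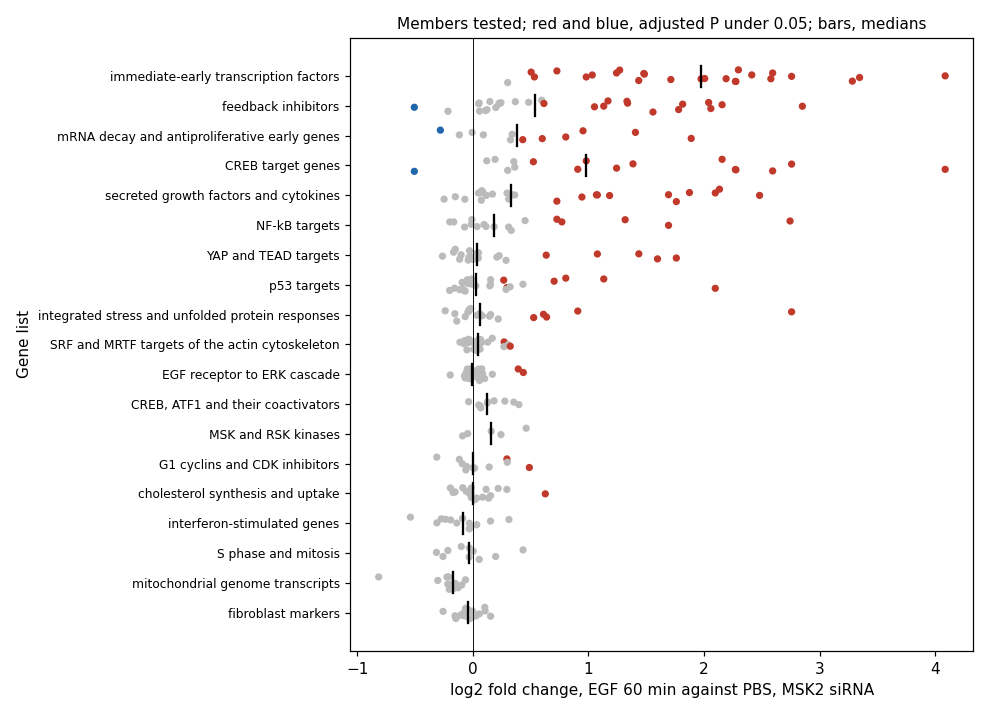
Log2 fold change after 60 min of EGF against PBS with MSK2 siRNA (x axis) for the members tested of 19 gene lists (y axis, 1 point a gene). Red and blue points passed an adjusted P of 0.05, gray points did not, and black bars are medians, from 1.97 for immediate-early transcription factors to -0.17 for mitochondrial transcripts.

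The 5 genes that fell did so by less than most rises. RGS2, which shortens signaling through Gq, was at 152, 155, 154 and 148 CPM after PBS and at 96.0, 123 and 102 CPM after EGF (-0.51 ± 0.10, adjusted P = 0.00162). GAS1, a growth arrest gene that is high in quiescent cells, was at 26.7, 22.1, 28.2 and 26.1 CPM and then at 19.2, 18.3 and 15.8 CPM (-0.53 ± 0.12, adjusted P = 0.00993). AP3M2, a subunit of an adaptor of vesicle transport, was at 57.7 to 63.1 CPM and then at 46.7, 42.9 and 45.5 CPM (-0.43 ± 0.09, adjusted P = 0.00471). The vasodilator peptide gene ADM went from a mean of 171 to 137 CPM (-0.32 ± 0.08, adjusted P = 0.0299), and PNRC1, a nuclear receptor coactivator, from 248 to 204 CPM (-0.28 ± 0.07, adjusted P = 0.017). RGS2 passed in each of the 16 other settings tried, but ADM and PNRC1 in 9 and 10 of them. GAS1 lost the call without the third EGF library (adjusted P = 0.115). ADM lost it without PBS library 1 or 4 or EGF library 1 or 3 (adjusted P 0.0852 to 0.21), and PNRC1 without PBS library 3 or EGF library 1 or 3 (0.0832 to 0.181).

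Against the response with control siRNA, which shares no library with this comparison, most of the same genes had risen. With control siRNA 244 genes (2.5%) rose and 15 (0.154%) fell. Of the genes that rose with MSK2 siRNA 171 had also risen with control siRNA, which is 83.0% of the 206 and 70.1% of the 244. All 206 had a log2 fold change above 0 with control siRNA, and 240 of the 244 had one above 0 with MSK2 siRNA. The median rise of the 206 genes was 0.71 with MSK2 siRNA and 0.69 with control siRNA, and that of the 244 was 0.60 and 0.64. Over all 9770 genes tested, Pearson's r between the pairs of log2 fold changes was 0.747 and Spearman's rho 0.439. Over the 279 genes higher with either siRNA, which were chosen for rising, r was 0.938. These are descriptions over genes that share libraries and are not independent. Of the falls, RGS2 and PNRC1 were shared.

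**Figure D4:**
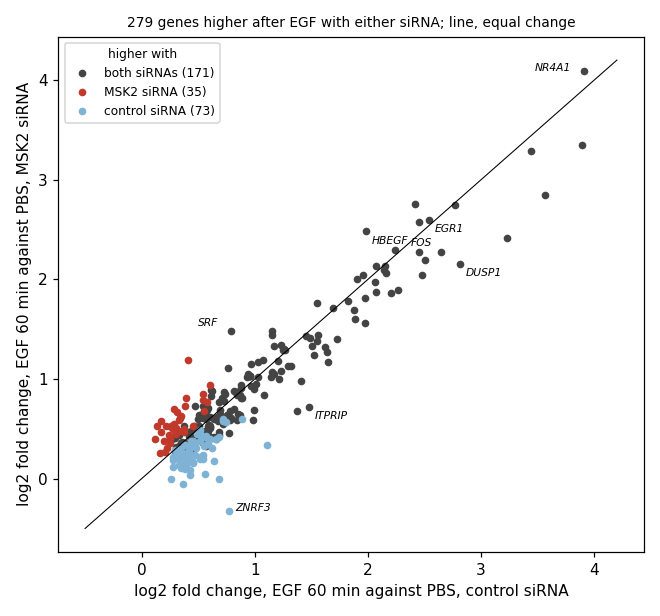
Log2 fold change after 60 min of EGF with control siRNA (x axis) and with MSK2 siRNA (y axis) for the 279 genes higher with either, with the line of equal change. Black points passed with both siRNAs (171), red with MSK2 siRNA (35) and blue with control siRNA (73), and most points lie near the line.

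The difference between the log2 responses was tested directly. At an adjusted P under 0.05, 0 genes had a smaller and 0 a larger response with MSK2 siRNA by edgeR's quasi-likelihood test (0%), with 111 (1.14%) and 105 (1.07%) genes at an unadjusted P under 0.05. Of the 279 genes higher with either siRNA, 174 had the smaller log2 fold change with MSK2 siRNA, with a median difference of -0.06, and 25 were smaller and 10 larger at an unadjusted P under 0.05. These genes were chosen by the responses from which the difference is made, so the counts are a description. DESeq2 called 3 genes smaller and 0 larger. The smallest adjusted P was 0.0545, shared by DUSP1 and ITPRIP, which were singled out with ZNRF3, SRF and KLF2 after their values were seen. DUSP1 reached 285, 308 and 327 CPM after EGF with MSK2 siRNA and 444, 420 and 440 CPM with control siRNA, from 61.7 to 77.0 and 57.8 to 70.6 CPM after PBS (log2 difference -0.66, 95% interval -0.90 to -0.41). ITPRIP, which encodes a protein that binds the inositol trisphosphate receptor, rose by 0.72 against 1.48 (difference -0.75, -1.04 to -0.47). Both were called when the filter on low counts was left out and by DESeq2.

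ZNRF3, a ubiquitin ligase gene that removes Wnt receptors, was at 8.35, 8.16, 8.12 and 8.43 CPM after PBS and at 7.79, 5.80 and 6.32 CPM after EGF with MSK2 siRNA. With control siRNA it went from 5.28 to 8.92 CPM to 14.3, 13.1 and 11.5 CPM (difference -1.10, -1.58 to -0.62, adjusted P = 0.216). None of these libraries with MSK2 siRNA was above 10 CPM, the level asked of 2 libraries, so ZNRF3 was tested through libraries of other groups. KLF2 rose by 2.41 against 3.23 (difference -0.82, -1.26 to -0.37). In the other direction, RGS2 fell by 0.51 with MSK2 siRNA and by 1.09 with control siRNA (difference 0.59, 0.29 to 0.88), and SRF rose by 1.48 against 0.79 (difference 0.69, 0.33 to 1.06). SRF started lower with MSK2 siRNA, at 5.97 to 7.11 CPM after PBS against 17.9 to 21.8 CPM with control siRNA, and reached 20.4, 17.1 and 18.1 CPM against 39.0, 36.2 and 30.2 CPM. None of these 3 passed the adjustment. For the 279 genes the 95% interval of the difference had a median half-width of 0.31 on the log2 scale before any adjustment.

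Genes that the study termed MSK2 dependent were chosen by it from libraries that include these EGF libraries with MSK2 siRNA but not the PBS libraries with MSK2 siRNA, so their counts are not independent evidence. All 59 were tested, and 29 of them rose and 0 fell after EGF with MSK2 siRNA when PBS with the same siRNA was the baseline (background 2.11% higher). With control siRNA 50 of the 59 rose (background 2.5%). The study took the 59 from genes that rose after 60 min of EGF, so the share over all genes is not a fair background for them. Their median log2 fold change was 0.39, against 0.53 with control siRNA, and 57 of 59 were above 0. The median difference between the responses was -0.15, with 0 genes called and 5 lower and 3 higher at an unadjusted P under 0.05. Over all genes tested the median difference was -0.004, with 1.14% lower and 1.07% higher at that unadjusted P. Among the 228 genes termed MSK2 independent, which the study also chose by their levels, the median difference was also below 0, at -0.08, with 64 above 0, 0 called, and 21 lower and 4 higher at an unadjusted P under 0.05. The knockdown itself lowered 44 of the 59 after PBS, where 12.6% of all genes were lower and 12.2% higher, and raised 0, with a median of -0.52. That comparison shares the PBS libraries with the response, and the values are given side by side only.

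Set against PBS with control siRNA, the median of the 59 genes stood at 0.53 on the log2 scale after EGF with control siRNA, at -0.53 after PBS with MSK2 siRNA and at -0.004 after EGF with MSK2 siRNA. In 58 of the 59 the PBS level was lower with MSK2 siRNA than with control siRNA. For 228 genes termed MSK2 independent the same medians were 0.59, 0.02 and 0.60. Of these 228, 148 rose with MSK2 siRNA and 194 with control siRNA, where 2.11% and 2.5% of all genes rose. Their median log2 fold change with MSK2 siRNA was 0.53. These genes too were taken by the study from those that rose after EGF. The plot of both lists by group shows these medians with the line of each gene.

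The largest rises among the 59 were DUSP2, PTGS2, IL11, CD274, CCN1 and NUAK2. CD274, which encodes the immune checkpoint ligand PD-L1, was at 2.18, 1.63, 1.74 and 2.89 CPM after PBS and at 7.16, 9.06 and 7.38 CPM after EGF (1.86 ± 0.25, adjusted P = 4.42e-06). None of these libraries was above 10 CPM, the level asked of 2 libraries, so CD274 was tested through libraries of other groups. With control siRNA it went from a mean of 3.78 to 17.4 CPM, so that it rose with both siRNAs and ended lower with MSK2 siRNA. CCN1 went from a mean of 285 to 966 CPM with MSK2 siRNA and from 590 to 1726 CPM with control siRNA (difference of the log2 responses 0.21, -0.02 to 0.44). The smallest values were those of ZNRF3 (-0.32), PELO (-0.01), HS3ST3B1 (0.04), THOC6 (0.11), FERMT2 (0.13) and ZPR1 (0.13), none of which passed with MSK2 siRNA. Their log2 fold changes with control siRNA were 0.26 to 0.77.

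**Figure D5:**
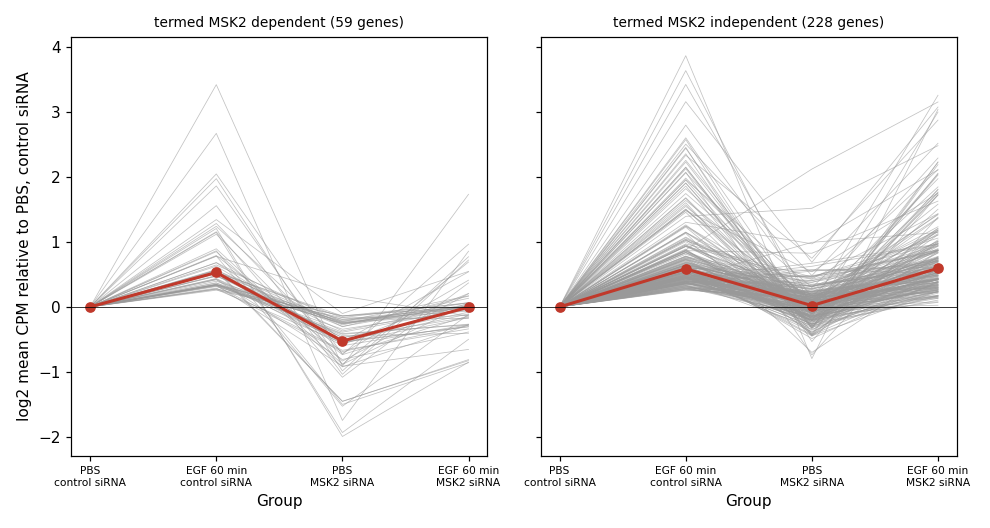
Group mean of log2 CPM, with 0.5 added to CPM before the log, relative to PBS with control siRNA (y axis) in 4 groups (x axis). Gray lines, 1 a gene, are 59 genes termed MSK2 dependent (left) and 228 termed MSK2 independent (right), with medians in red. The left medians run 0, 0.53, -0.53 and -0.004, and the right ones 0, 0.59, 0.02 and 0.60.

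Several early genes lay below the filter on low counts and were read from a fit with no filter. FOSB rose by 2.65 ± 0.34 (adjusted P = 4.15e-12), the EGF receptor ligand genes AREG and EREG by 1.58 ± 0.29 and 1.28 ± 0.29, and the phosphatase gene DUSP8 by 1.51 ± 0.26. NR4A3 (1.71 ± 0.57) and IL6 (0.83 ± 0.28) did not pass, nor did SIK1 (1.84 ± 0.80), which has a near-identical copy in the genome that can take its reads. The library kit does not mark the strand, so reads of a gene and of one that overlaps it on the other strand cannot be told apart. In GENCODE v44 such an overlap, introns included, was found for NR4A1, EGR3, BHLHE40, CSRNP1, JUNB, CEBPB, ETS1, ETS2, DUSP1, ERRFI1, LIF, PTGS2, CD274, CDKN1A, CDKN2B, FILIP1L, KRT18, RPS6KA5, RGS2 and ZNRF3, among other genes named.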

How the data were processed

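Per the labels, the study's methods and the submitters' processing notes, the authors prepared total RNA of IMR90 cells with SMART-Seq v4 and Nextera XT, demultiplexed with bcl2fastq 2.20.0.422, mapped to hg38 by STAR 2.7.9a and counted by HTSeq 0.13.5. The authors deposited raw counts per gene, with 1 file for each library. The annotation release and the strand setting of the counting are not given in the sources used here. Summary lines that name no gene, 5 a file and 18.3 to 22.4% of the reads, were dropped.

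Genes above 10 CPM in 2 or more of the 22 libraries, 9770 in all, entered a single edgeR model (version 4.0.16, R 4.3.3) with a mean for each of the 6 groups, TMM factors and quasi-likelihood tests, called at a Benjamini-Hochberg adjusted P under 0.05. CPM in the text are scaled by TMM. Log2 fold changes, standard errors and 95% intervals come from this fit. The script was tested on simulated data. Replicates differed by more than counting noise, since chi-square over its degrees of freedom ran from 6.32 to 31.8 in 9 pairs. Taken over all genes tested together, counting error was the smaller part of the spread. This need not hold for genes with few reads, since no value was computed for single genes. No library was counted as a repeat of another.

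Genes named were the 12 largest rises and all falls among called genes whose libraries did not overlap, the 3 members of smallest P of each list, the 6 largest and 6 smallest values among genes the study termed MSK2 dependent, RPS6KA4 and RPS6KA5, with other members of the lists given by value. Some members are not reported here. The members, lists and rules were chosen with earlier results of these data known. Alternatives were edgeR's exact test, DESeq2 (1.42.0) in full or for size factors alone, scaling by library size, the filterByExpr rule, no filter, a filter or a fit limited to the groups compared, a log2 fold change cutoff of 0.5, the replicate number as a block and each library left out in turn. Motifs were searched in the RefSeq windows, which held 7996 of the genes tested, and gene coordinates were taken from GENCODE v44 (GRCh38), which held 9768 of them. Figures were drawn with matplotlib.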

Additional observations from a re-analysis of the deposited data

Results flagged for a closer look

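In 154 combinations of a named gene and a PBS group of 4 libraries, 16 held a library far from the other 3 by Dixon's test, which flags about 1 in 20 groups by chance. With MSK2 siRNA, the third PBS library was low for FOS (6.88 CPM, nearest 10.9) and high for PNRC1 (264 CPM, nearest 244) and for ETS1 (45.4 CPM, nearest 40.2). The fourth was low for CSRNP1 (21.3 CPM, nearest 26.1), and the second was high for SOS2 (69.4 CPM, nearest 51.0), which encodes a RAS activator. Without the third PBS library PNRC1 no longer passed (adjusted P = 0.0832).

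With control siRNA, whose PBS libraries enter the difference between responses, the fourth library was high for the interferon-stimulated genes IFIT2 (34.9 CPM), IFIT3 (72.7 CPM) and IFI44 (22.8 CPM), for PMAIP1 (105.8 CPM), LOX (562 CPM) and FERMT2 (126 CPM), and low for MT-ND2 (118 CPM). The third was high for ATF3 (11.5 CPM) and CXCL8 (17.6 CPM) and low for SOS2 (43.6 CPM). The first was high for PPP1R15A (184 CPM).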

How the results depend on the processing

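The 206 rises moved between 182 and 254 over the other tests, scalings and filters, and the cutoff of 0.5 on the log2 fold change left 157. The 5 falls became 10 with edgeR's exact test and with DESeq2, 8 with no filter, and 2 in a fit of the compared groups alone or with the cutoff. Leaving out each library in turn gave 172 to 202 rises and 2 to 9 falls: 9 falls without the second PBS or the second EGF library, 3 without the first EGF library and 2 without the third. For the genes termed MSK2 dependent, 25 to 29 rose when a library was left out. Their count was 20 in a fit of the compared groups alone, 25 with the filter run over the compared groups, 22 with the cutoff and 33 with DESeq2. A smaller response with MSK2 siRNA was called for 3 genes by DESeq2 (DUSP1, ITPRIP, ZNRF3), for 3 with no filter (DUSP1, ITPRIP, MT-CO1) and for 0 to 1 with a library left out (ITPRIP without the first, DUSP1 without the fourth PBS library with control siRNA). A larger response was called for 1 gene, MX1, with no filter, and for 0 with any library left out. MX1 was at 45.8 CPM in the fourth PBS library with control siRNA and at 3.82 to 7.74 CPM in the others. With the replicate number as a block, 224 genes rose, 11 fell, and DUSP1 and ITPRIP (2 genes) had a smaller response. Same-numbered PBS and EGF libraries with MSK2 siRNA did not deviate together (correlations of -0.31, -0.18 and -0.09). With control siRNA the values were 0.40, -0.01 and -0.03. With so few libraries these values cannot show whether the numbers pair them. Of 78 named genes tested 45 were called, and 8 of them lost the call under some setting other than the cutoff (ADM, AP3M2, CDKN1A, CDKN2B, ETS1, FILIP1L, GAS1 and PNRC1). No named gene changed sign in a called value. The causes of these changes were not tested.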
